A study of Mus musculus with 26 samples.

Results

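The collagen genes of the mouse were described here in 26 RNA-seq libraries of KH2 embryonic stem cells (ESC) before and during exposure to retinoic acid. Members were all genes of the count table whose GENCODE M21 symbol has the form Col, a number, a and a number. That rule found 44 of 55471 genes, of which 11 code for fibrillar collagens, 9 for basement membrane collagens, 4 for transmembrane collagens and 20 for other collagens. Wild-type cells (WT) were compared with cells that, per the labels, lack the alpha form of NAP1L1 (alphaKO) and with cells that lack NAP1L1 (fullKO). NAP1L1 is a chaperone for histones H2A and H2B. Cells were taken at day 0 and after 2 and 4 days of retinoic acid. Groups hold 3 libraries each, except the 2 of fullKO at day 0. KH2 cells carry a reverse tetracycline transactivator and a recombination site placed downstream of Col1a1. The labels name no transgene and do not say whether feeder cells were present. Libraries of each knockout genotype share a name prefix, so each genotype may be 1 line, and no library was left untreated to day 2 or 4.

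Libraries held 13537267 to 20569706 counts, and all 44 collagen genes passed the filter on low counts. Levels are given as CPM, the read count of a gene scaled to a common library size by the trimmed mean of M-values. Nap1l1, the targeted gene, stood at 997 to 1068 CPM in the WT libraries of day 0, at 569 to 621 CPM in those of alphaKO and at 397 to 401 CPM in those of fullKO. No knockout library reached the WT range on any day. Counts per gene do not show which isoform was lost. The 8 ESC markers summed to 3189.9 to 3362 CPM in WT at day 0 and to 98 to 108 CPM at day 4. The alphaKO sum was 289 to 309 CPM and the fullKO sum 412 to 437 CPM at day 4. A gene is said to have risen or fallen where edgeR's quasi-likelihood test gave a Benjamini-Hochberg adjusted p under 0.05 over 18412 genes. Log2 fold changes carry their SE and CPM values their SD. Nothing in the labels tells whether replicates came from separate cultures, so p-values measure only the spread between these libraries, which may be technical.

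Collagens are proteins of 3 chains wound into a triple helix. Fibrillar collagens are trimmed outside the cell and pack into the fibrils that give connective tissue its strength, and fibroblasts are their best known source. Collagen IV forms the sheet-like network of basement membranes, which early embryonic epithelia and endoderm lay down with laminin. Collagen VI makes beaded filaments around cells, the collagens such as XII and XIV attach to fibril surfaces, and transmembrane collagens stay anchored in the cell membrane. Several collagen IV genes lie head to head in pairs that share the stretch between their start sites.

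The RefSeq table of bases around gene starts (GRCm38.p6) held 38 windows for 35 of the 44 genes. The stretches below were chosen after the values were seen. Col3a1 and Col5a1 are fibrillar genes that dipped at day 2 in WT and returned, Col6a3 had the largest fall to day 2 in WT of the 44 genes, and Col13a1 was higher in both knockout genotypes. They are the bases just before the start of Col3a1 (chr1:45311288-45311537, plus strand), Col6a3 (chr1:90843972-90844221, minus strand), Col5a1 (chr2:27886175-27886424, plus strand) and Col13a1 (chr10:61979109-61979358, minus strand). Capitals mark the letters of 4 motifs on either strand: the CCAAT box, the GC box spelled GGGCGG, the TATA box spelled TATAAA, and the nuclear receptor element spelled AGGTCA. The reverse complement of each counts as a match.
Col3a1: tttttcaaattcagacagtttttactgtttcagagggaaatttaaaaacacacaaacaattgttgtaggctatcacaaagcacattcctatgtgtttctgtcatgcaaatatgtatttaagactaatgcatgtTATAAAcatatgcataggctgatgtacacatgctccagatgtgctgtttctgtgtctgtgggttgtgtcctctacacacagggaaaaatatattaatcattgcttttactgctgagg
Col6a3: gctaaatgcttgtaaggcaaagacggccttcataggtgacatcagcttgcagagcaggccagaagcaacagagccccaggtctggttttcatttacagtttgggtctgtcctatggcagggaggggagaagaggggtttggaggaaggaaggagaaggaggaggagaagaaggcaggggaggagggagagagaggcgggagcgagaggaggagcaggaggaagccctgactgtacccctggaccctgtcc
Col5a1: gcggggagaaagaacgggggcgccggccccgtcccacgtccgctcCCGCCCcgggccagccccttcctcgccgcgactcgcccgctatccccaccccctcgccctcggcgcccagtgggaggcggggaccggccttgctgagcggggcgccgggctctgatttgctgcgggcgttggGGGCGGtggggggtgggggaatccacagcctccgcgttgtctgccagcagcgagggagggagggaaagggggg
Col13a1: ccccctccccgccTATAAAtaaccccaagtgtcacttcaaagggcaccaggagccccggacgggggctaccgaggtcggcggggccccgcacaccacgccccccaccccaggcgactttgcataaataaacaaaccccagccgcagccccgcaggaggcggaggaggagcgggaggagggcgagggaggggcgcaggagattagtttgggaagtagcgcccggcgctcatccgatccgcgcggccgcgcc
The Col3a1 stretch holds no CG dinucleotide and 1 match to TATAAA, 117 bases before the start. The Col5a1 stretch holds 28 CG dinucleotides and 2 GC boxes. That of Col13a1 holds 24 CG dinucleotides and 1 match to TATAAA, 237 bases before the start. Col6a3 has 3 CG dinucleotides and none of the 4 motifs in its stretch. Over 32851 windows of the same length the median was 6 CG dinucleotides, and 27.3% of windows held at least 15. The CCAAT box was found in 33.85% of them, the GC box in 32.74%, the TATA box in 12.37% and the receptor element in 14.02%.

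Start regions of collagen IV genes are shown because the genes of each pair are read in opposite directions. Col4a6 and Col4a5 on chromosome X are 1308 bp apart, with the Col4a6 stretch at chrX:141474077-141474326 (minus strand) and that of Col4a5 at chrX:141475169-141475384 (plus strand). Col4a4 and Col4a3 on chromosome 1 are 71 bp apart, and the whole gap is given as chr1:82586850-82586920 on the minus strand, the strand of Col4a4.
Col4a6: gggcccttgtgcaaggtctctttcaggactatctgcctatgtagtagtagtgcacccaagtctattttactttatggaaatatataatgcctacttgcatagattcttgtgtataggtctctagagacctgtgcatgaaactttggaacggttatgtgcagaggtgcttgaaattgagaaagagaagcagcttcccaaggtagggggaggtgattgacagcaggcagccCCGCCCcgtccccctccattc
Col4a5: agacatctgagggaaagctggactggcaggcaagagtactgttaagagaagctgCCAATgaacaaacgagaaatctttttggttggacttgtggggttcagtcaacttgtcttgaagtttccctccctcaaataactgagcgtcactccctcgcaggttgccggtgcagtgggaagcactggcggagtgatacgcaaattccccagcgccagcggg
Col4a4 to Col4a3: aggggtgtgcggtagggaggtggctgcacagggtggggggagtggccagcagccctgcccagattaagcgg
The Col4a6 stretch holds 1 GC box and the Col4a5 stretch 1 CCAAT box, and the gap between Col4a4 and Col4a3 holds none of the 4 motifs. The Col4a5 stretch was cut to 216 bases at the GENCODE start of the gene. Its full RefSeq window of 250 bases also holds 1 GC box, so the partners do not differ in that motif. The shares of windows given above are for 250 bases. Annotated ends of Col4a1 and Col4a2 on chromosome 8 overlap by 22 bp, also head to head. Motif matches are descriptions of these letters only.

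The levels of all 44 genes by group show which collagen transcripts were present in the bulk RNA, whichever cells they came from. Set on a scale of CPM per kb of the principal transcript, Col1a2 (127), Col1a1 (127), Col18a1 (121) and Col3a1 (108) led in WT cells at day 0. At day 4 the order in WT was Col18a1 (356), Col4a1 (351), Col4a2 (229.9) and Col3a1 (102). Fibrillar collagens made up 54.3% ± 1.62 of all collagen CPM per kb in WT at day 0, 27% ± 0.5 at day 2 and 26.1% ± 0.861 at day 4. Basement membrane collagens made up 26.4% ± 1.68, 67.3% ± 0.625 and 67.4% ± 0.872. In alphaKO the fibrillar share was 48.6% ± 2.57, 11.6% ± 0.738 and 17.4% ± 0.385 on the 3 days. In fullKO it was 27.3% ± 2.93, 8.93% ± 0.232 and 17.6% ± 1.2. Fibrillar transcripts were thus the larger class in WT and alphaKO at day 0 and basement membrane transcripts in fullKO. That fullKO class was mostly Col18a1, at 85.6 CPM per kb at day 0 beside 10.9 for Col4a1 and 6.06 for Col4a2. Col4a1 and Col4a2 stood at 47.6 and 34.1 in WT at day 0. Transmembrane collagens stayed between 0.111% and 1.74% in every group mean.

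**Figure D1:**
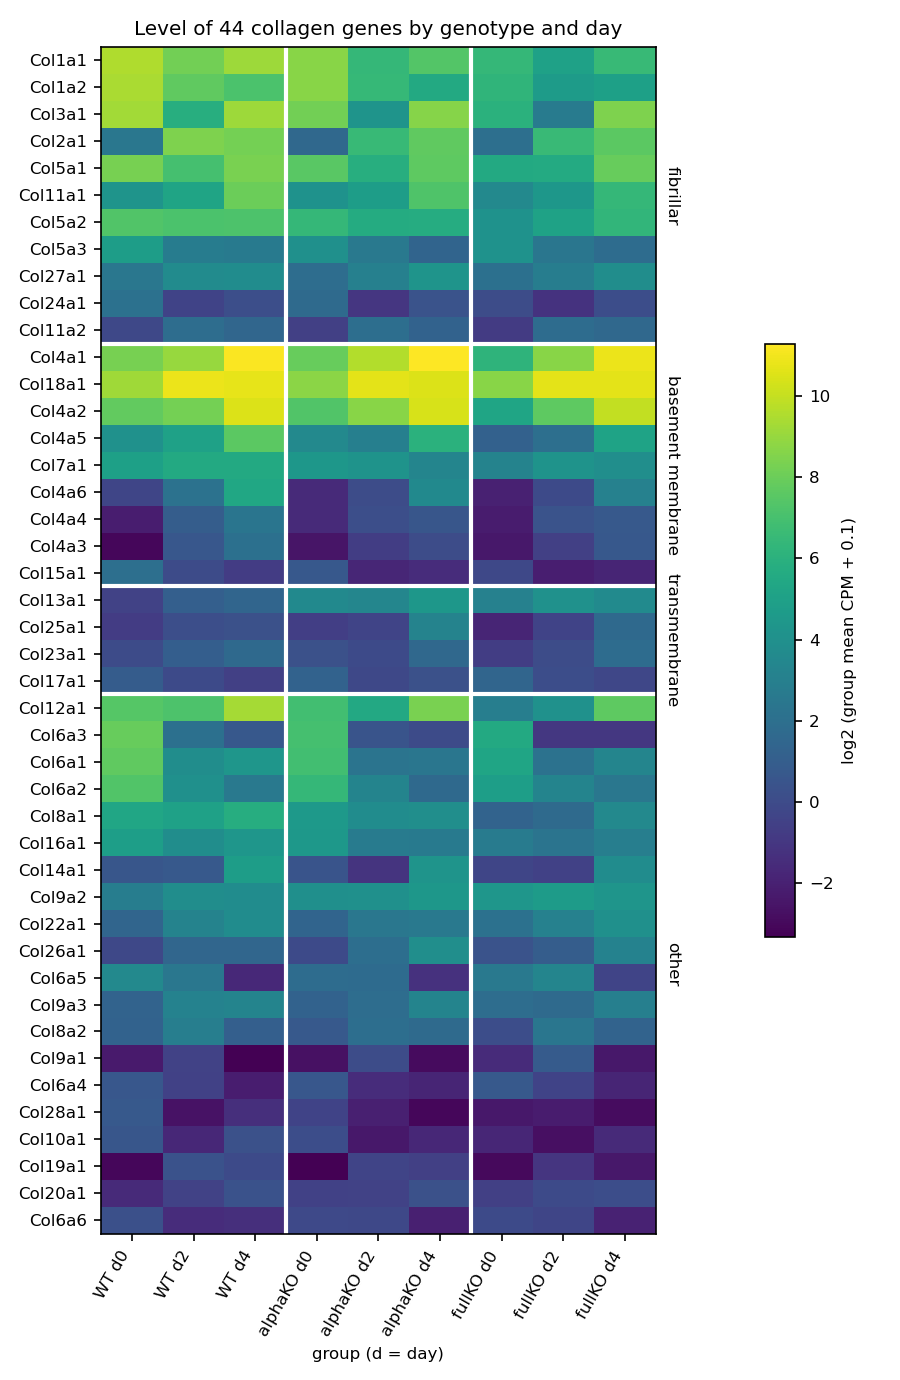
Group mean level of each of the 44 collagen genes, as log2 of CPM plus 0.1 (colour), in the 9 groups of genotype and day (columns), with genes grouped by class (rows). Col1a1, Col1a2 and Col3a1 lead the fibrillar rows in WT at day 0, and Col4a1, Col4a2 and Col18a1 are the brightest rows at day 4 in all 3 genotypes.

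In WT cells most collagen genes changed during retinoic acid exposure, as did most genes overall. Between days 0 and 2, 23 of 44 collagen genes rose and 18 fell, where 36.7% of all tested genes rose and 34% fell. By day 4, 24 were above day 0 and 15 below, against 40.7% and 36.7% of all genes. Between days 2 and 4, 17 rose and 9 fell (all genes 30.2% and 29.2%). The median log2 fold change of the 44 was 0.52 at day 2 and 0.77 at day 4 against day 0, beside 0.06 and 0.1 over all tested genes. Of the 9 basement membrane genes 8 rose and 1 fell by day 4, and of the 11 fibrillar genes 4 rose and 4 fell. Of 4 transmembrane genes 3 rose and 1 fell, and the 20 other genes split into 9 and 9. In bulk RNA, fewer cells of a type and less RNA per cell cannot be told apart.

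Among fibrillar genes, the chains of collagens I and III were high at day 0, dropped by day 2 and then parted. Col1a1 (ENSMUSG00000001506.10, chromosome 11, 94936224 to 94953042), the main chain of collagen I, stood in WT at 644, 885 and 728 CPM at day 0, 291, 297 and 276 at day 2 and 547, 587 and 552 at day 4. Its day 2 libraries were the lowest and no groups overlapped. The fall to day 2 was 1.38 ± 0.11 on the log2 scale and the return to day 4 0.96 ± 0.11 (edgeR adjusted p = 2.76e-10). Col1a2 (ENSMUSG00000029661.16, chromosome 6, 4504814 to 4541544), the second chain of that protein, had 598, 786 and 661 CPM at day 0, 188, 228 and 209 at day 2 and 136, 153 and 132 at day 4, a fall at each step. Against day 0 it fell by 2.28 ± 0.11 at day 4 (edgeR adjusted p = 1.54e-22). Col3a1 (ENSMUSG00000026043.18, chromosome 1, 45311538 to 45349706) codes for collagen III, which mixes with collagen I in fibrils of soft tissue. It stood at 527, 695 and 585 CPM at day 0, 52.1, 69.3 and 53.2 at day 2 and 542, 566 and 589 at day 4. Day 2 was far below both other days, while days 0 and 4 overlapped. Col3a1 fell by 3.38 ± 0.12 to day 2 and rose by 3.28 ± 0.12 from there (edgeR adjusted p = 2.11e-26), and day 4 against day 0 gave -0.09 ± 0.1. The predicted gene Gm47302 overlaps Col3a1 exons on the same strand, so some of its reads may belong there.

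Col5a1 (ENSMUSG00000026837.16, chromosome 2, 27886425 to 28039514), the collagen V chain that starts fibrils, followed the course of Col3a1 with a smaller dip. In WT it had 265, 353 and 309.7 CPM at day 0, 125, 123 and 132 at day 2 and 307, 329 and 339 at day 4, a fall of 1.29 ± 0.09 and a rise of 1.36 ± 0.09. Antisense gene models 2810430I11Rik and Gm13372 overlap its exons. Col2a1 (ENSMUSG00000022483.17, chromosome 15, 97975602 to 98004695), the cartilage collagen that is also made by notochord and early neuroepithelium, was close to absent at day 0 and then among the main fibrillar genes. Its WT libraries had 5.96, 6.09 and 4.49 CPM at day 0, 329, 337 and 380.3 at day 2 and 275, 305 and 312 at day 4. All day 2 and day 4 libraries lay above all of day 0, and the rise to day 2 was 5.97 ± 0.08 on the log2 scale, or 62.9-fold (edgeR adjusted p = 1.02e-43). Between days 2 and 4 it fell by 0.23 ± 0.05. Col11a1 (ENSMUSG00000027966.20, chromosome 3, 114030540 to 114220718), a chain of the collagen XI that nucleates cartilage fibrils, had 20.7, 21 and 15.6 CPM at day 0, 36.4, 36.8 and 36.4 at day 2 and 272, 254 and 249.6 at day 4. It rose by 0.93 ± 0.09 to day 2 and by 2.82 ± 0.07 more to day 4, with no overlap between days. Of 5 chondrocyte markers tested, 4 rose and 1 fell from day 0 to day 4 (all genes 40.7% and 36.7%). The sum of all listed chondrocyte markers was 23.4 to 25.7 CPM at day 0 and 61.9 to 68.2 CPM at day 4. Cnmd was at 0 counts in every genotype at day 0 and Snorc at day 4, and the part of these cells in the Col2a1 and Col11a1 results was not tested. Col5a2, the partner chain of Col5a1, averaged 161, 139 and 149 CPM on the 3 days. Col5a3 averaged 28, 6.86 and 6.22 CPM, and Col27a1, a large cartilage collagen, 5.34, 13.1 and 13.6 CPM. Col11a2 and Col24a1 stayed under 5 CPM in every group.

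Most basement membrane genes rose in WT, Col18a1 by day 2 and the chains Col4a1 and Col4a2 mainly after it. Col18a1 (ENSMUSG00000001435.15, chromosome 10, 77052178 to 77166548) codes for the proteoglycan-like collagen that carries endostatin. Its libraries had 596, 576 and 563 CPM at day 0, 1808, 1864 and 1922 at day 2 and 1708, 1729.7 and 1679 at day 4, so that the step came by day 2 and days 2 and 4 both lay above day 0. The rise to day 2 was 1.69 ± 0.04 (edgeR adjusted p = 2.42e-35), with a fall of 0.13 ± 0.04 after it. Col4a1 (ENSMUSG00000031502.11, chromosome 8, 11198423 to 11312826) and Col4a2 (ENSMUSG00000031503.13, chromosome 8, 11312805 to 11449287) code for the chains of the common collagen IV network. Col4a1 had 276, 364 and 305 CPM at day 0, 529, 516 and 525 at day 2 and 2414, 2301 and 2251 at day 4. Col4a2 had 181, 248 and 230.2 CPM at day 0, 303, 294 and 302 at day 2 and 1518, 1471 and 1459 at day 4. Every day 4 library of both genes lay above every earlier one. Their rises from day 2 to day 4 were 2.15 ± 0.07 and 2.31 ± 0.08 on the log2 scale, each larger than the rise to day 2 (0.73 ± 0.07 and 0.45 ± 0.08). Their exons overlap each other on opposite strands, and those of Col4a2 also overlap Gm15419. The second collagen IV pair, on the X chromosome, codes for chains of specialised basement membranes. Col4a5 (ENSMUSG00000031274.16, chromosome X, 141475385 to 141689234) had 14.3, 17.8 and 18 CPM at day 0, 30.5, 35.1 and 32.8 at day 2 and 189, 195 and 204 at day 4. Col4a6 (ENSMUSG00000031273.16, chromosome X, 141165403 to 141474076), its head-to-head partner shown above, had 0.467, 0.738 and 0.99 CPM at day 0, 4.27, 4.54 and 4.56 at day 2 and 43.2, 39.8 and 43 at day 4. Both rose at each step and no days overlapped, by 3.56 ± 0.12 and 5.85 ± 0.21 over the 4 days (edgeR adjusted p = 7.08e-30 and 5.66e-28). Levels of Col4a6 at day 0 were under 1 CPM, so its fold is uncertain.

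The remaining pair of collagen IV genes, Col4a3 and Col4a4, whose products join Col4a5 in kidney and lung membranes, stayed under 5 CPM in every group. Col7a1 (ENSMUSG00000025650.13, chromosome 9, 108953586 to 108984875), the anchoring fibril collagen of skin, had 26.3, 30.3 and 38.2 CPM at day 0, 46.4, 51.2 and 45.3 at day 2 and 49.7, 50.2 and 41.7 at day 4. It rose by 0.6 ± 0.11 to day 2 and gave -0.01 ± 0.11 between days 2 and 4, which overlapped. The microRNA gene Mir711 lies within its exons on the same strand. Col15a1, the closest relative of Col18a1, was under 5 CPM in every group and was the 1 basement membrane gene that fell in WT. Of 15 basement membrane partners (laminins, nidogens, perlecan, agrin and Sparc) 12 rose and 3 fell from day 0 to day 4. Of all tested genes 40.7% rose and 36.7% fell over the same days. Lama1, a laminin chain of early basement membranes, rose by 2.97, while Lama4 fell by 2.35. Of 16 markers of primitive and parietal endoderm, cells that make large amounts of collagen IV, 12 rose and 1 fell. Their sum was 148 to 184 CPM at day 0, 741 to 821 at day 2 and 704 to 723 at day 4, with Afp and Ttr at 0 at day 0. That sum was no lower at day 2 than at day 4. The part of endoderm cells in the Col4a1 and Col4a2 results was not tested.

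**Figure D2:**
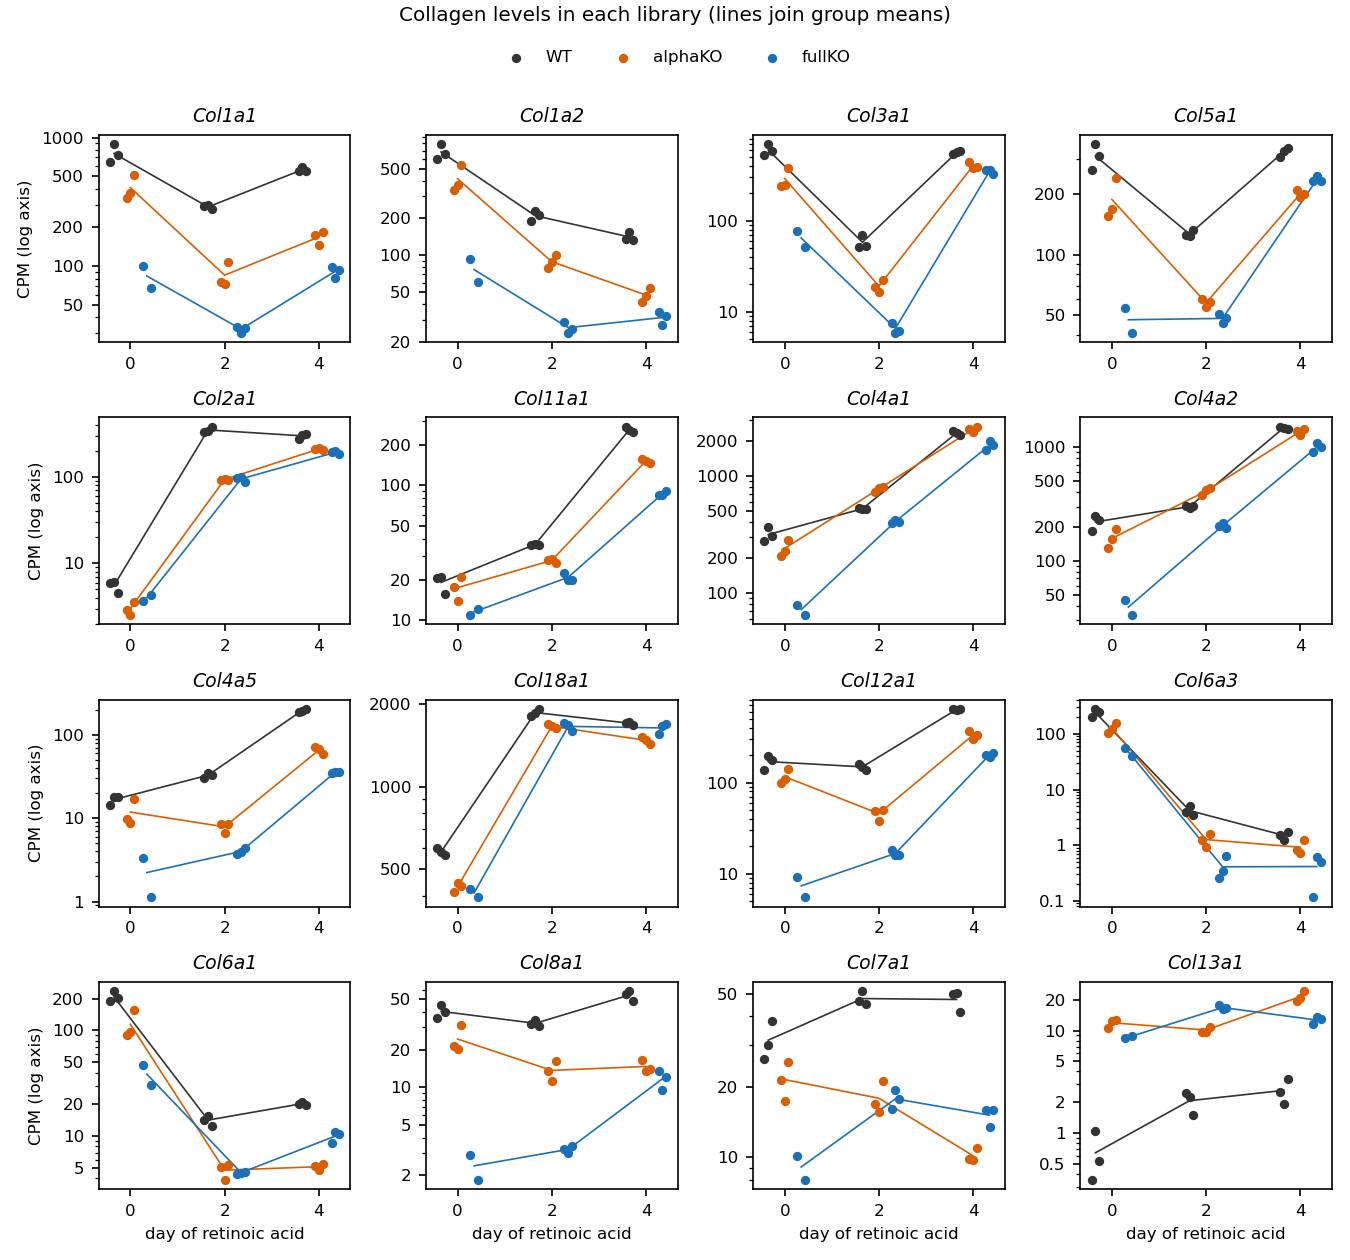
Level in CPM (log axis) of 16 collagen genes in each of the 26 libraries (points) against the day of retinoic acid, with lines through group means, coloured by genotype and shifted sideways for clarity. Col3a1 dips at day 2 in all 3 genotypes, Col6a3 drops by over 1 order of magnitude and stays low, and Col13a1 lies higher in both knockout genotypes than in WT on each day.

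Transmembrane and other collagens differed in their course in WT. Col13a1 (ENSMUSG00000058806.15, chromosome 10, 61838236 to 61979108), a membrane collagen of cell junctions and the neuromuscular synapse, was low, with 0.35, 1.05 and 0.528 CPM at day 0, 2.48, 2.23 and 1.5 at day 2 and 2.54, 1.91 and 3.39 at day 4. It rose by 1.68 ± 0.31 to day 2. The remaining membrane genes Col17a1, Col23a1 and Col25a1 were under 4 CPM in WT. Collagen VI genes, whose products form a heterotrimer, fell steeply. Col6a3 (ENSMUSG00000048126.16, chromosome 1, 90765923 to 90843971), the largest of its chains, had 199, 279 and 245 CPM at day 0, 3.96, 5.14 and 3.44 at day 2 and 1.52, 1.25 and 1.72 at day 4, a fall of 5.85 ± 0.15 (57.9-fold) by day 2 (edgeR adjusted p = 2.73e-33). The lowest library of day 0 had 199 CPM and the highest later one 5.14 CPM. Col6a1 (ENSMUSG00000001119.7, chromosome 10, 76708792 to 76726168) had 189, 235 and 202 CPM at day 0, 14.4, 15.6 and 12.6 at day 2 and 20.1, 21.1 and 19.8 at day 4. Col6a2 (ENSMUSG00000020241.13, chromosome 10, 76595762 to 76623630), its neighbour on chromosome 10, had 144, 174 and 158 CPM at day 0, 15.4, 18.5 and 15 at day 2 and 6.96, 5.95 and 4.54 at day 4. By day 4 the falls were 3.36 ± 0.13 and 4.78 ± 0.17, and between days 2 and 4 Col6a1 rose by 0.52 ± 0.16 whereas Col6a2 fell by 1.5 ± 0.2. Col6a5 averaged 11.6, 5.47 and 0.22 CPM and fell by 5.74 by day 4.

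Col12a1 and Col14a1, which attach to fibrils, rose between days 2 and 4. Col12a1 (ENSMUSG00000032332.17, chromosome 9, 79598991 to 79718831), a long bridging collagen of tendon and other stressed tissue, had 139, 195 and 176 CPM at day 0, 160.0, 149.8 and 136 at day 2 and 632, 626 and 640.2 at day 4. Days 0 and 2 overlapped, and the rise from day 2 to day 4 was 2.09 ± 0.09 (edgeR adjusted p = 6.75e-24). Day 2 against day 0 gave -0.19 ± 0.09, and this was called a fall (-0.32) without the first day 0 library. Col14a1, a collagen of the same type, averaged 1.39, 1.58 and 28.1 CPM and rose by 4.34 by day 4. Col8a1 (ENSMUSG00000068196.5, chromosome 16, 57624258 to 57754737), which forms the hexagonal lattice under endothelia, had 35.5, 45.3 and 39.996 CPM at day 0, 31.9, 34.5 and 30.5 at day 2 and 55.8, 58.1 and 49 at day 4. It rose by 0.75 ± 0.12 after day 2. The fall before that, 0.32 ± 0.12, was not called without the second day 0 library (-0.22) or without the third day 2 library (-0.28). Col16a1 (ENSMUSG00000040690.15, chromosome 4, 130047840 to 130099283), a minor fibril-linking collagen, had 26.4, 32.3 and 27.5 CPM at day 0, 12.1, 17 and 13.1 at day 2 and 20.7, 22 and 18.1 at day 4, with a fall of 1.03 ± 0.14 and a partial return of 0.53 ± 0.14. At lower levels, Col9a3 rose by 1.84, Col8a2 by 1.71 and Col22a1 by 1.81 to day 2. Col9a3 reads may include those of Tcfl5, which overlaps it on the opposite strand, and Col22a1 reads those of Gm16308. Col9a2 and Col26a1 averaged 13.8 and 2.77 CPM at day 4. The rest of the other class (Col6a4, Col6a6, Col9a1, Col10a1, Col19a1, Col20a1 and Col28a1) stayed under 2 CPM in every group.

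At least 22 of 44 collagen genes were lower than in WT in each knockout genotype on every day, and the median difference was largest in fullKO at day 0. In alphaKO 2 of 44 collagen genes were higher and 22 lower than in WT at day 0, where 17.7% of all tested genes were higher and 20.9% lower. At day 2 the counts were 4 and 27 (all genes 19.9% and 20.3%), and at day 4 6 and 23 (28.7% and 24%). In fullKO 3 were higher and 26 lower at day 0, beside 16.2% and 17.7% of all genes. The fullKO counts were 4 and 28 at day 2 (23.8% and 23.8%) and 5 and 24 at day 4 (25.1% and 24.5%). The median log2 fold change of the 44 was -0.48, -0.93 and -0.65 in alphaKO on the 3 days. In fullKO it was -1.1, -0.92 and -0.66, and over all tested genes each median lay between -0.03 and 0.06. Both sets of comparisons share the WT libraries. By class at day 0, 8 of 11 fibrillar, 7 of 9 basement membrane and 7 of 20 other genes fell in alphaKO, and 9, 7 and 10 in fullKO. Over the 6 comparisons 1 fibrillar gene was called higher than WT, in alphaKO at day 4.

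Most fibroblast markers were lower in the knockout genotypes at day 0, as were most fibrillar genes. Of 16 fibroblast markers 2 were higher and 13 lower in alphaKO than in WT at day 0, and 15 were lower in fullKO. Of all tested genes 17.7% were higher and 20.9% lower in alphaKO, and 16.2% and 17.7% in fullKO. Lum, a small proteoglycan of collagen fibrils, was lower by 0.93 in alphaKO and by 3.15 in fullKO. Postn, a matrix protein of fibroblasts, was lower by 4.13 in fullKO. All 16 markers summed to 3872 to 4633 CPM in the WT libraries of day 0, to 4176 to 5002 CPM in alphaKO and to 3342 to 3472 CPM in fullKO. On that sum alphaKO overlapped with WT and had the higher mean (4657 against 4320 CPM), unlike its fibrillar genes. Without Fn1, which was left out after its high level was seen, the other 15 markers summed to 935, 1210.2 and 1076 CPM in the WT libraries of day 0. They summed to 551, 585 and 815 CPM in alphaKO and to 166 and 112 CPM in fullKO, with no marker at 0 in any group. The 11 fibrillar collagens summed to 2238, 2973 and 2499 CPM in WT, to 1186, 1273 and 1835 CPM in alphaKO and to 385 and 271 CPM in fullKO. Genotypes overlapped neither in the fibrillar sum nor in that of the 15 markers, and the order of libraries within alphaKO was the same in both. The ratio of the fibrillar sum to that of the 15 markers lay between 2.15 and 2.46 in all 8 libraries of day 0. It lay between 3.19 and 4.23 at day 2 and between 5.79 and 6.66 at day 4. These ratios leave out Fn1, which made up most of the sum of all 16 markers at day 0, and the shared day 0 range holds only without it. The sum of all 16 markers was not lower in alphaKO than in WT at day 0. In fullKO that sum was 3342 to 3472 CPM beside 3872 to 4633 in WT, a far smaller gap than in the fibrillar sum. For the chains Col6a1, Col6a2 and Col6a3 the ratio at day 0 was 0.562 to 0.569 in WT, 0.473 to 0.514 in alphaKO and 0.807 to 0.846 in fullKO. The part of fibroblast-like cells in the day 0 results was not tested. Without the second WT library, the highest of its group, 2 collagen genes were higher and 21 lower in alphaKO, and 3 higher and 25 lower in fullKO. Without the third alphaKO library the alphaKO counts were 2 and 23.

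**Figure D3:**
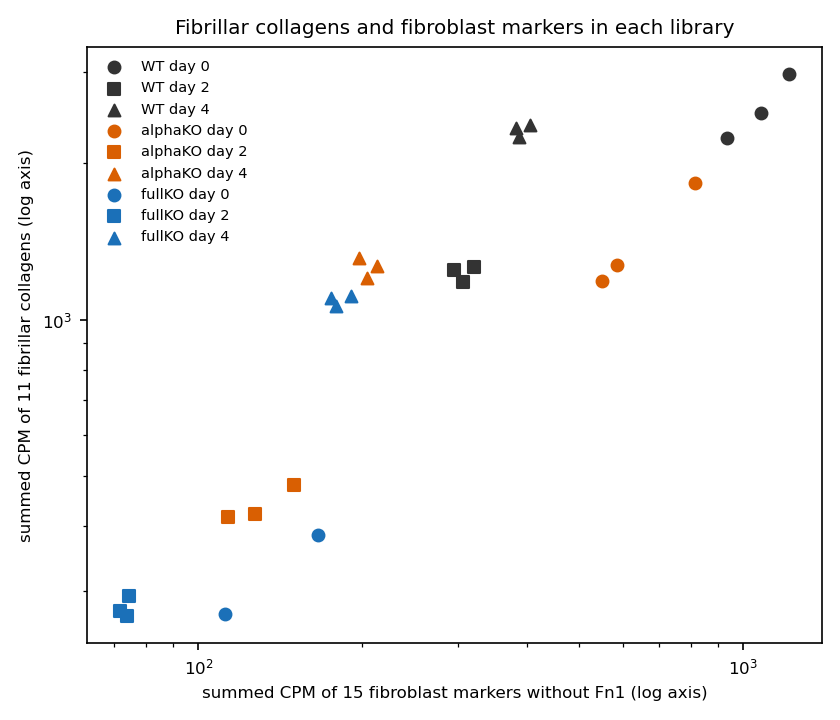
Summed CPM of 11 fibrillar collagens against summed CPM of 15 fibroblast markers (both log axes) in each of the 26 libraries, coloured by genotype and shaped by day. Fn1 was left out after its level was seen, and with it the day 0 marker sums of alphaKO and WT overlapped. With Fn1 the day 0 sum was 3342 to 3472 CPM in fullKO beside 3872 to 4633 in WT, so the day 0 band holds only without it. The 8 libraries of day 0 lie in 1 band, with WT at 2238 to 2973 CPM of fibrillar collagen at the top and fullKO at 271 to 385 at the bottom, while libraries of days 2 and 4 lie above that band.

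Both collagen I chains were lower than in WT in each knockout genotype on each day, and lower in fullKO than in alphaKO. Col1a1 stood in alphaKO at 339, 373 and 511 CPM at day 0, 75.7, 72.1 and 107 at day 2 and 175, 145 and 185 at day 4. The fullKO libraries had 100.4 and 67 CPM at day 0, 33.4, 30.3 and 33.2 at day 2 and 98.9, 80.8 and 93.7 at day 4. All knockout libraries were below all WT libraries of their day. In alphaKO the fall against WT was 0.88 ± 0.11 at day 0, 1.76 ± 0.12 at day 2 and 1.74 ± 0.11 at day 4. In fullKO it was 3.16 ± 0.14, 3.16 ± 0.13 and 2.63 ± 0.12 (edgeR adjusted p = 7.10e-23 at day 4). This is the gene beside which KH2 cells carry their recombination site. Col1a2, which lies on another chromosome, had in alphaKO 336, 371 and 537 CPM at day 0, 78.1, 88.2 and 99.6 at day 2 and 42, 46.8 and 54.1 at day 4. In fullKO it stood at 92.8 and 60.2 CPM at day 0, 29.1, 23.6 and 25.2 at day 2 and 34.5, 27.5 and 32.1 at day 4. Its falls against WT were 0.71 ± 0.11, 1.23 ± 0.12 and 1.56 ± 0.13 in alphaKO and 3.15 ± 0.14, 3 ± 0.13 and 2.16 ± 0.13 in fullKO, with no overlap on any day. Both collagen I chains were thus still below WT in every knockout library of day 4.

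Col3a1 was nearer to WT at day 4 than at day 0 in both knockout genotypes, and by more in fullKO. By DESeq2 the alphaKO difference in change was not called. In alphaKO it had 241, 250.3 and 385 CPM at day 0, 18.8, 16.4 and 22.3 at day 2 and 440.3, 378 and 395 at day 4. Levels in fullKO were 78 and 51.6 CPM at day 0, 7.6, 5.89 and 6.21 at day 2 and 367, 362 and 328 at day 4. The dip at day 2 was thus present in every genotype, and knockout libraries stayed below WT each day. Its falls against WT were 1.04 ± 0.11, 1.6 ± 0.15 and 0.48 ± 0.11 in alphaKO and 3.21 ± 0.14, 3.14 ± 0.18 and 0.68 ± 0.11 in fullKO (edgeR adjusted p = 4.87e-07 at day 4). Col5a1 had in alphaKO 156, 169 and 239.7 CPM at day 0, 60.1, 54.7 and 57.9 at day 2 and 209, 192 and 200.1 at day 4 and in fullKO 54 and 40.9 CPM at day 0, 50.7, 45.7 and 48.2 at day 2 and 232, 245 and 231 at day 4. It was below WT in all knockout libraries of each day, by 2.7 ± 0.11 in fullKO at day 0 and by 0.46 ± 0.09 at day 4. The alphaKO falls were 0.72 ± 0.09, 1.14 ± 0.1 and 0.7 ± 0.09. Col5a2, next to Col3a1 on chromosome 1, was lower by 0.92 in alphaKO and by 3.23 in fullKO at day 0.

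Col2a1, the gene that WT cells switched on by day 2, was lower in both knockout genotypes. In alphaKO it had 2.91, 2.53 and 3.57 CPM at day 0, 92.5, 94.9 and 92.1 at day 2 and 211, 213 and 205 at day 4. The values of fullKO were 3.63 and 4.36 CPM at day 0, 97.7, 98.4 and 87.7 at day 2 and 194, 198 and 183 at day 4. At day 2 every knockout library was under 100 CPM and every WT library above 300. The fall against WT at day 2 was 1.9 ± 0.06 in alphaKO and 1.88 ± 0.06 in fullKO (edgeR adjusted p = 2.24e-29 and 1.02e-29). At day 4 it was 0.51 ± 0.05 and 0.63 ± 0.05. At day 0, where the gene was under 7 CPM, the values were 0.87 ± 0.16 and 0.48 ± 0.17 below WT. The fullKO call at day 0 was lost without the first or second WT library (-0.42 and -0.4), without the first fullKO library (-0.37) or with only the 2 groups in the fit (-0.46). Col11a1 had in alphaKO 17.7, 13.8 and 20.9 CPM at day 0, 28, 28.6 and 26.7 at day 2 and 158, 152 and 146 at day 4. Those of fullKO were 10.9 and 12.2 CPM at day 0, 22.6, 19.9 and 20.01 at day 2 and 84.3, 84.6 and 90.8 at day 4. Its falls at day 4 were 0.77 ± 0.06 in alphaKO and 1.58 ± 0.07 in fullKO, with no overlap. At day 2 they were 0.39 ± 0.08 and 0.81 ± 0.09. At day 0 fullKO was lower by 0.73 ± 0.12. The alphaKO value of -0.13 ± 0.1 at day 0 was called without the third WT library (-0.25) or the third alphaKO library (-0.28).

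At day 2 the main collagen IV chains lay above WT in alphaKO, unlike the fibrillar genes named above. In fullKO they stayed below WT, as those genes did. Col4a1 had in alphaKO 208, 228 and 283 CPM at day 0, 731, 786 and 806 at day 2 and 2501, 2369.7 and 2632 at day 4. In fullKO it had 79.1 and 64.7 CPM at day 0, 396, 419 and 406 at day 2 and 1661, 1985 and 1837 at day 4. At day 2 alphaKO lay above WT and fullKO below it, with no overlap. Against WT Col4a1 was lower by 0.39 ± 0.07 in alphaKO at day 0, higher by 0.56 ± 0.07 at day 2 (edgeR adjusted p = 8.52e-09) and gave 0.11 ± 0.07 at day 4. In fullKO it was lower by 2.13 ± 0.09, 0.36 ± 0.07 and 0.35 ± 0.07. Col4a2 had in alphaKO 129, 154 and 189 CPM at day 0, 381, 416 and 435 at day 2 and 1389, 1284 and 1459 at day 4. The fullKO libraries had 44.9 and 33.3 CPM at day 0, 202, 214 and 193 at day 2 and 912, 1092 and 1000.4 at day 4. It followed Col4a1, with alphaKO lower by 0.48 ± 0.09 at day 0, higher by 0.45 ± 0.08 at day 2 and at -0.11 ± 0.08 at day 4. The fullKO falls were 2.49 ± 0.11, 0.56 ± 0.08 and 0.57 ± 0.08. At day 0 alphaKO and WT libraries overlapped for both genes. Among 16 endoderm markers at day 2, 10 were higher and 3 lower in alphaKO (all genes 19.9% and 20.3%). In fullKO 8 were higher and 4 lower (all genes 23.8% and 23.8%). Their sum at day 2 was 741 to 821 CPM in WT, 1046 to 1094 in alphaKO and 713 to 825 in fullKO, with no marker at 0 at day 2. The part of these cells in the Col4a1 and Col4a2 result was not tested.

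Chains of the X-linked pair were lower than in WT in both knockout genotypes at days 2 and 4. Col4a5 had in alphaKO 9.7, 8.87 and 16.9 CPM at day 0, 8.44, 6.63 and 8.52 at day 2 and 70.8, 66.7 and 58.8 at day 4. Levels in fullKO were 3.33 and 1.12 CPM at day 0, 3.75, 3.88 and 4.37 at day 2 and 34.5, 35.8 and 36.3 at day 4. At days 2 and 4 every knockout library was below every WT library. The falls against WT at those days were 2.06 ± 0.14 and 1.58 ± 0.1 in alphaKO and 3.03 ± 0.16 and 2.46 ± 0.1 in fullKO (edgeR adjusted p = 3.85e-24 at day 4). Col4a6 had in alphaKO 0.0581, 0.0587 and 0.569 CPM at day 0, 0.913, 0.755 and 1.24 at day 2 and 12.7, 13.3 and 10.9 at day 4. The values of fullKO were 0.297 and 0 CPM at day 0, 0.962, 0.785 and 0.895 at day 2 and 8.35, 8.01 and 9.42 at day 4. It fell at day 4 by 1.77 ± 0.14 in alphaKO and 2.29 ± 0.14 in fullKO, again with no overlap. At day 2 its falls were 2.19 ± 0.25 and 2.33 ± 0.25. At day 0 Col4a5 was lower by 2.86 ± 0.23 in fullKO and by 0.48 ± 0.14 in alphaKO. The alphaKO call was lost without its first library (-0.35), without its second (-0.3) or with only these groups in the fit (-0.46), and the value was -0.84 without the third. Col4a6 was under 1 CPM at day 0 in every group mean. Its day 0 values of -1.55 in alphaKO and -2.16 in fullKO rest on few reads. The alphaKO call was lost without the third WT (-1.28), first alphaKO (-1.11) or second alphaKO library (-1.12), and the fullKO call without the second fullKO library (-1.26). Without the third alphaKO library the alphaKO value was -3.47, and without the first fullKO library the fullKO value was -6.66.

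Col18a1 differed from WT by no more than 0.5 on the log2 scale on any day. In alphaKO it had 414, 447 and 433 CPM at day 0, 1689.8, 1661 and 1635 at day 2 and 1516, 1486 and 1427 at day 4. Those of fullKO were 425 and 395 CPM at day 0, 1708, 1676 and 1597 at day 2 and 1558, 1668 and 1691 at day 4. At day 0 it was lower by 0.42 ± 0.04 in alphaKO and 0.5 ± 0.04 in fullKO, and every library of day 2 lay above those of day 0 in all 3 genotypes. At day 4 alphaKO was lower by 0.21 ± 0.04, while fullKO overlapped with WT (-0.06 ± 0.04). Col7a1 had in alphaKO 21.3, 17.4 and 25.6 CPM at day 0, 16.8, 15.6 and 21.1 at day 2 and 9.77, 9.7 and 10.9 at day 4. In fullKO it had 10.1 and 7.99 CPM at day 0, 16.1, 19.4 and 17.7 at day 2 and 15.9, 13.5 and 15.8 at day 4. All its knockout libraries lay below all WT libraries of their day. The alphaKO fall was 0.55 ± 0.12 at day 0, 1.42 ± 0.12 at day 2 and 2.22 ± 0.13 at day 4. The fullKO fall was 1.79 ± 0.15, 1.42 ± 0.11 and 1.65 ± 0.12.

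**Figure D4:**
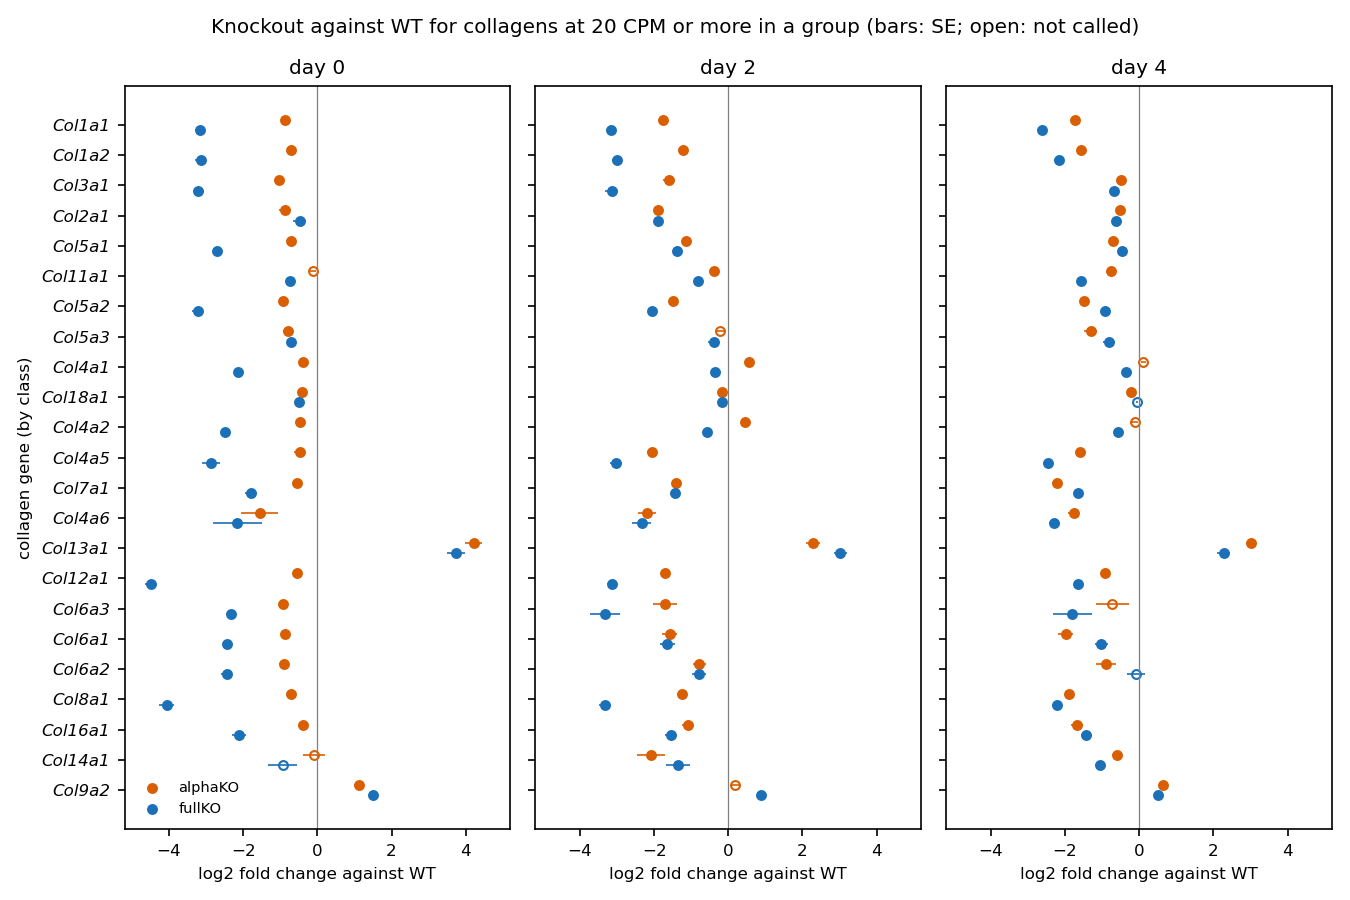
Log2 fold change of each knockout genotype against WT (horizontal axis) at days 0, 2 and 4 for the 23 collagen genes with at least 20 CPM in a group (vertical axis), with bars of 1 SE and open points where the test made no call. Most points lie left of 0, Col13a1 lies to the right on each day, and Col4a1 and Col4a2 lie right of 0 in alphaKO at day 2.

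Col13a1 was an exception, higher in both knockout genotypes on each day. It had 10.7, 12.5 and 12.7 CPM at day 0, 9.7, 9.76 and 10.9 at day 2 and 19.3, 20.9 and 24.2 at day 4 in alphaKO. The fullKO libraries had 8.39 and 8.85 CPM at day 0, 17.7, 16.3 and 16.5 at day 2 and 11.6, 13.5 and 13 at day 4. The highest WT library had 3.39 CPM and the lowest knockout library 8.39 CPM, so the groups did not overlap. In alphaKO the rise was 4.21 ± 0.22, 2.29 ± 0.18 and 3.03 ± 0.16 on the 3 days, and in fullKO 3.74 ± 0.25, 3.02 ± 0.17 and 2.27 ± 0.17 (edgeR adjusted p = 2.57e-20 and 1.10e-16 at day 0). The stretch before its start, given above, is rich in CG dinucleotides, as is that of Col5a1, and no link to levels was tested. Col25a1, a membrane collagen of neurons, averaged 9.09 CPM in alphaKO and 3.05 CPM in fullKO at day 4 beside 1.11 CPM in WT, and rose by 3.03 in alphaKO. Col9a2, a chain of the collagen IX that coats cartilage fibrils, averaged 7.09 CPM in WT at day 0, 15.4 in alphaKO and 20.3 in fullKO. It was higher than WT in alphaKO by 1.12 at day 0 and 0.64 at day 4. In fullKO it was higher by 1.51, 0.88 and 0.51 on the 3 days. Col26a1 averaged 2.77 CPM in WT at day 4 and was higher by 2.4 in alphaKO and 1.65 in fullKO. Col6a5 was lower by 1.76 in alphaKO at day 0 and higher by 0.87 in fullKO at day 2.

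Collagen VI chains were lower in both knockout genotypes at day 0, when they were abundant. Col6a3 had in alphaKO 104, 123 and 153 CPM at day 0, 1.26, 0.916 and 1.62 at day 2 and 0.819, 0.712 and 1.22 at day 4. Levels in fullKO were 56 and 39.4 CPM at day 0, 0.253, 0.343 and 0.632 at day 2 and 0.116, 0.62 and 0.507 at day 4. At day 0 its fall was 0.93 ± 0.1 in alphaKO and 2.33 ± 0.12 in fullKO (edgeR adjusted p = 1.23e-10 and 5.27e-20). Col6a1 had in alphaKO 91.1, 97.3 and 155 CPM at day 0, 5.14, 3.88 and 5.29 at day 2 and 5.23, 4.82 and 5.4 at day 4. The values of fullKO were 46.9 and 30.3 CPM at day 0, 4.41, 4.51 and 4.63 at day 2 and 8.64, 11 and 10.4 at day 4. Its day 0 falls were 0.86 ± 0.11 and 2.43 ± 0.14, and its day 4 falls 1.98 ± 0.19 and 1.02 ± 0.17. Col6a2 had in alphaKO 65.7, 75.8 and 111 CPM at day 0, 8.22, 9.16 and 11.1 at day 2 and 3.72, 2.47 and 3.15 at day 4. Those of fullKO were 37.3 and 20.5 CPM at day 0, 9.98, 9.66 and 8.58 at day 2 and 4.7, 6.04 and 5.36 at day 4. At day 0 it fell by 0.91 ± 0.12 and 2.45 ± 0.15, and at day 4 fullKO overlapped with WT (-0.09 ± 0.24). For all 3 chains, every library of day 2 was below every library of day 0 of its genotype, as in WT.

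Col12a1 and Col8a1 had the deepest falls of fullKO at day 0. Col12a1 had in alphaKO 100.2, 109 and 139.7 CPM at day 0, 49.3, 37.7 and 50.4 at day 2 and 365, 299.6 and 331 at day 4. In fullKO it had 9.28 and 5.55 CPM at day 0, 18.1, 15.9 and 16.3 at day 2 and 203, 189 and 212 at day 4. Against WT it was lower in fullKO by 4.5 ± 0.16 (22.6-fold, edgeR adjusted p = 1.95e-26) at day 0, by 3.15 ± 0.12 at day 2 and by 1.65 ± 0.09 at day 4. The alphaKO falls were 0.54 ± 0.09, with overlap, then 1.7 ± 0.1 and 0.93 ± 0.09. Col8a1 had in alphaKO 21.3, 20.1 and 31.3 CPM at day 0, 13.5, 11.3 and 16.2 at day 2 and 16.4, 13.6 and 14 at day 4. The fullKO libraries had 2.92 and 1.85 CPM at day 0, 3.24, 2.99 and 3.42 at day 2 and 13.6, 9.5 and 12.1 at day 4. It was lower in fullKO by 4.06 ± 0.2, 3.33 ± 0.16 and 2.22 ± 0.13, and in alphaKO by 0.72 ± 0.12, 1.24 ± 0.13 and 1.89 ± 0.13. So the alphaKO difference was largest at day 4 and the fullKO difference at day 0. Col16a1 had in alphaKO 17.4, 20.3 and 28.2 CPM at day 0, 6.33, 6.47 and 7.01 at day 2 and 6.74, 6.25 and 5.92 at day 4. Levels in fullKO were 7.73 and 5.48 CPM at day 0, 3.75, 4.61 and 6.16 at day 2 and 6.49, 7.28 and 8.74 at day 4. At day 4 it was lower by 1.68 ± 0.16 in alphaKO and 1.43 ± 0.15 in fullKO. At day 0 the fullKO fall was 2.11 ± 0.18 and the alphaKO fall 0.38 ± 0.13. The latter was not called without the second WT (-0.29), first alphaKO (-0.24) or second alphaKO library (-0.32), and without the third alphaKO library its value was -0.6.

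Markers of other cell types also moved at day 4, when collagens I, IV and XII were abundant in WT. Of all tested genes 40.7% rose and 36.7% fell in WT from day 0 to day 4. Against WT at day 4, 28.7% were higher and 24% lower in alphaKO, and 25.1% and 24.5% in fullKO. Of 8 smooth muscle and pericyte markers 7 rose and 1 fell in WT from day 0 to day 4, Acta2 by 7. Their sum at day 4 was 3029 to 3375 CPM in WT, 735 to 1032 in alphaKO and 953 to 1249 in fullKO. In alphaKO 1 was higher and 6 lower than in WT at day 4, and in fullKO 1 and 7, Acta2 by 2.42 and 1.81. Of 16 fibroblast markers 11 were lower in alphaKO at day 4, and in fullKO 2 were higher and 10 lower. Fbln2 was lower by 2.32 and 3.07. Of 6 endothelial markers 3 were higher in each knockout genotype and their sum was at most 49.97 CPM in any library of day 4. All 8 ESC markers were higher in alphaKO at day 4 and 7 of 8 in fullKO. The part of these cells in the collagen results was not tested.

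The knockout genotypes were also set against each other. At day 0 21 collagen genes were higher in alphaKO than in fullKO and 3 lower, where 14.4% and 14.6% of all tested genes were. At day 2 the counts were 12 and 5 (all genes 13% and 12.3%), and at day 4 14 and 8 (17.4% and 15.4%). Col12a1, Col8a1 and Col1a2 were higher in alphaKO at day 0 by 3.96 ± 0.16, 3.34 ± 0.21 and 2.43 ± 0.14 (edgeR adjusted p = 3.59e-23, 8.20e-17 and 3.30e-18). All 16 fibroblast markers were higher in alphaKO at day 0 as well. At day 2 Col8a1, Col1a2, Col3a1 and Col12a1 were higher by 2.08, 1.77, 1.55 and 1.45. Col9a2, Col6a5, Col13a1 and Col22a1 were lower in alphaKO than in fullKO at day 2. Day 4 also had genes on both sides. Col1a1 and Col4a5 were higher in alphaKO by 0.88 and 0.88, and Col25a1 by 1.57. Col22a1, Col6a1 and Col7a1 were lower in alphaKO by 1.4, 0.97 and 0.58.

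Col2a1 gave -0.02 ± 0.06 between the knockout genotypes at day 2, where their libraries overlapped. Col18a1 gave 0.07 ± 0.04 at day 0, which was called without the first fullKO library (0.16). Some calls were lost when 1 library was left out. Leaving out a fullKO library of day 0 leaves 1 in that group. At day 0 Col9a2 was lower in alphaKO by 0.39, a call lost without the first alphaKO (-0.32), first fullKO (-0.4) or second fullKO library (-0.36). Col13a1 was higher by 0.47 at day 0, a call lost without the third alphaKO (0.43), first fullKO (0.46) or second fullKO library (0.51). It was lower in alphaKO by 0.73 at day 2 and higher by 0.75 at day 4. Col6a5 was lower by 0.79 at day 0, lost without the first fullKO library (-0.39).

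Changes from day 0 to day 4 were compared between genotypes by a test of the difference itself. Against WT, alphaKO had a higher change for 9 collagen genes and a lower one for 15 (all genes 24.2% and 19.7%). In fullKO the change was higher for 18 and lower for 4 (19.5% and 15.7%). These values share the WT libraries and hold the day 0 difference with its sign turned. Values are log2 differences, knockout less WT, so a positive one is a larger rise or a smaller fall than in WT. In fullKO, Col12a1 gave 2.85 ± 0.19 and Col3a1 2.53 ± 0.17, as they went from 7.41 to 202 CPM and from 64.8 to 352 CPM. Col4a1 and Col4a2, which rose in WT, gave 1.78 ± 0.12 and 1.92 ± 0.14 (edgeR adjusted p = 6.56e-17 and 1.91e-15). Col11a1 and Col13a1, which also rose in WT, gave -0.84 ± 0.14 and -1.46 ± 0.34 in fullKO. In alphaKO the collagen I chains Col1a1 and Col1a2 gave -0.86 ± 0.16 and -0.84 ± 0.17. Col1a1 went from 408 to 168 CPM in alphaKO and from 752 to 562 CPM in WT. Col7a1 gave -1.67 ± 0.17, with 21.4 and 10.1 CPM in alphaKO beside 31.6 and 47.2 CPM in WT. Col16a1, lower at day 4 than at day 0 in both, gave -1.3 ± 0.21. Col25a1 and Col26a1 gave 2.91 ± 0.52 and 2.28 ± 0.39.

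Some tests of this kind changed call when 1 library was left out. The fullKO difference in change of Col1a1, 0.54 ± 0.18, was not called without the second WT library of day 0 (0.4), the second fullKO library of day 0 (0.28) or the first fullKO library of day 4 (0.47), and was 0.9 without the first fullKO library of day 0. That of Col16a1, 0.68 ± 0.24, was lost without the second WT (0.59) or second fullKO library of day 0 (0.47) or the third WT (0.6) or the third fullKO library of day 4 (0.56). The alphaKO difference of Col4a2, 0.37 ± 0.12, was lost without the second WT (0.28) or first alphaKO library of day 0 (0.24). That of Col12a1, -0.39, was lost without the first WT library of day 0 (-0.26), the third alphaKO library of day 0 (-0.23) or the second alphaKO library of day 4 (-0.32).

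Chains that assemble into 1 protein can be set against each other per kb of transcript within a library, as a description with no test. Collagen I needs 2 chains from Col1a1 for each from Col1a2. Their ratio of CPM per kb was 0.994 ± 0.0224 in WT at day 0, 1.25 ± 0.125 at day 2 and 3.62 ± 0.154 at day 4. In alphaKO it was 0.891 ± 0.0283, 0.861 ± 0.118 and 3.21 ± 0.493, and in fullKO 0.99 ± 0.0198, 1.13 ± 0.0789 and 2.62 ± 0.0334. So Col1a1 came to exceed Col1a2 by day 4 in every library of all 3 genotypes, from near 1 at day 0. The collagen IV pair kept a narrower ratio. Col4a1 to Col4a2 was 1.4 ± 0.0984, 1.7 ± 0.00798 and 1.53 ± 0.0233 in WT, with fullKO between 1.77 to 1.79 at day 4 and 1.9 to 2.05 at day 2. Col4a5 to Col4a6 was 4.75 ± 0.274 in WT, 5.42 ± 0.28 in alphaKO and 4.22 ± 0.319 in fullKO at day 4.

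The ratio of Col5a1 to Col5a2 was 1.51 ± 0.0215, 0.718 ± 0.0755 and 1.72 ± 0.124 in WT on the 3 days and 2.96 ± 0.1 in alphaKO at day 4. Col6a3 to Col6a1 went from 0.524 ± 0.0392 in WT at day 0 to 0.0337 ± 0.00637 at day 4. At day 0 that ratio was 0.515 ± 0.0627 in alphaKO and 0.568 ± 0.0343 in fullKO, so the collagen VI chains kept close proportions across genotypes at day 0 while their levels differed. Col3a1 and Col5a2, which lie tail to tail 24614 bp apart on chromosome 1, went separate ways in time. Their ratio was 4.44 ± 0.061 in WT at day 0, 0.495 ± 0.045 at day 2 and 4.52 ± 0.3 at day 4. In alphaKO at day 4 it was 9.03 ± 0.588.

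**Figure D5:**
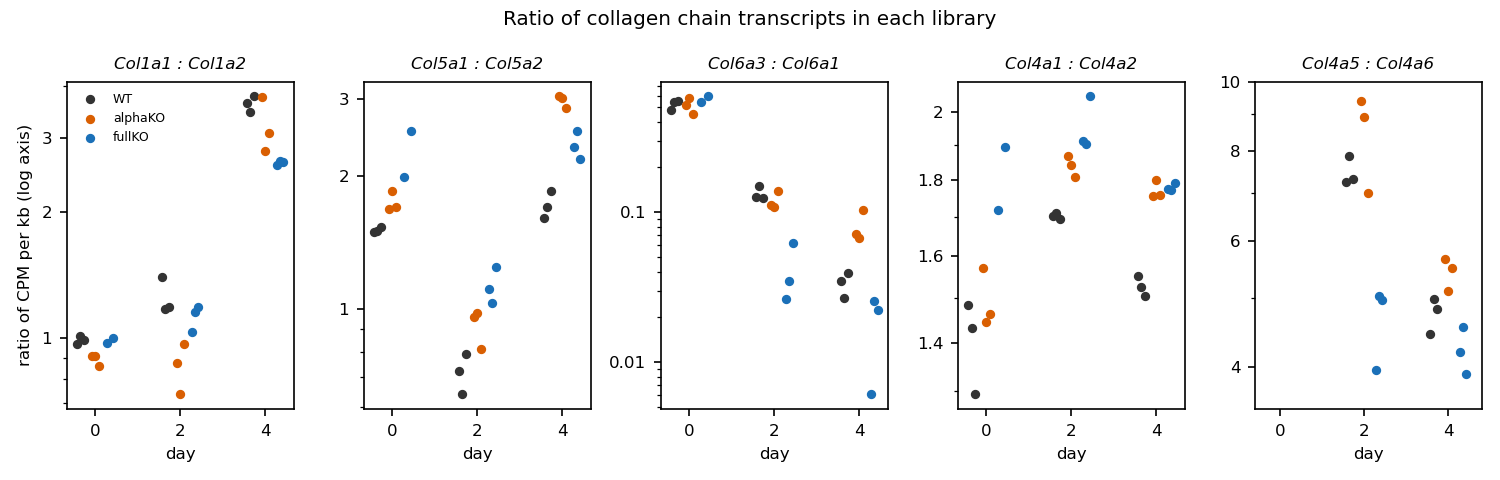
Ratio of CPM per kb (log axis) between chains of 1 collagen type in each library (points) by day, coloured by genotype and shifted sideways, for 5 chain pairs. Day 0 is not drawn for Col4a5 to Col4a6, since Col4a6 was near 0. Col1a1 to Col1a2 rises from near 1 at day 0 to between 2 and 4 at day 4, and Col6a3 to Col6a1 drops after day 0.

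The machinery that makes, secretes, links, binds and degrades collagen was followed in lists of textbook genes. Counts of each list stand beside the shares of all tested genes, which were 40.7% higher and 36.7% lower in WT at day 4 than at day 0. In alphaKO against WT those shares were 17.7% and 20.9% at day 0 and 28.7% and 24% at day 4, and in fullKO 16.2% and 17.7%, then 25.1% and 24.5%. Of 20 genes that modify and fold procollagen 18 rose and 1 fell in WT from day 0 to day 4. Serpinh1, the procollagen chaperone HSP47, rose by 2.75 and P3h2, a prolyl 3-hydroxylase that acts on collagen IV, by 3.2. At day 4 2 were higher and 11 lower in alphaKO than in WT, and 2 and 14 in fullKO. P3h2 was among the higher genes, by 1.3 in alphaKO and 0.74 in fullKO, and Fkbp10, a folding factor of collagen I, among the lower, by 0.78 and 1.06. Of 10 genes of collagen export 5 rose and 3 fell in WT by day 4, near the shares of all genes. Creb3l1, a transcription factor of collagen secretion, rose by 3.05 in WT and was lower at day 4 by 2.41 in alphaKO and 2.16 in fullKO.

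Of 14 genes that trim propeptides and crosslink collagen 7 rose and 3 fell in WT by day 4 (all genes 40.7% and 36.7%). Shares of all genes in the knockout comparisons are those given above. At day 0 3 were higher and 9 lower in alphaKO, and fullKO had 2 higher and 10 lower. By day 4 the counts were 1 and 7, and 1 and 10. Lox, the lysyl oxidase that crosslinks fibrils, was lower by 3.85 in fullKO at day 0, and at day 4 by 2.81 in alphaKO and 3.5 in fullKO. Its relative Loxl4 was lower at day 4 by 2.57 and 2.91. Of 8 collagen receptors tested, 6 were lower in alphaKO and 6 in fullKO at day 0, and 4 and 5 at day 4. Itga11, an integrin chain of fibroblasts, was lower by 4.54 in fullKO at day 0. Ddr1 and Itgb1, receptors that WT cells raised by 2.31 and 2.46 to day 4, were lower in alphaKO at day 4 by 1.12 and 1.47.

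Of 11 genes of collagen degradation 6 rose and 3 fell in WT by day 4 (all genes 40.7% and 36.7%). Mmp13, a collagenase, fell by 6.22, while the membrane proteases Mmp15 and Mmp16 rose by 4.88 and 4.65. At day 0 2 were higher and 8 lower in alphaKO, and 8 were lower in fullKO. Among basement membrane partners the balance of calls in alphaKO differed by day. At day 0 10 of 15 were higher and 4 lower than in WT, and at day 4 3 and 11. In fullKO the counts were 6 and 5 at day 0 and 1 and 13 at day 4. Lama1 was higher in alphaKO by 1.66 at day 0 and 1.49 at day 4.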

How the data were processed

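RNA was extracted with RNeasy and made into libraries with the KAPA Stranded mRNA-Seq kit, per the labels' protocols. The authors deposited raw read counts per gene. The submitters' processing notes name FastQC, STAR 2.7.1a and the mm10 genome build. How reads were counted, with which strand setting and annotation, is not stated in the sources here, so overlapping genes may share reads. Of 55471 genes 55230 matched GENCODE M21 by Ensembl ID.

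Counts were tested with edgeR 4.0.16 in R 4.3.3 (filterByExpr, 18412 genes, TMM scaling, quasi-likelihood fit of 9 group means, 17 residual degrees of freedom, Benjamini-Hochberg adjustment over all genes, 14 comparisons) and checked on simulated data. Members, gene lists and tests were chosen with earlier results of these data known. Genes given in every library are the first 6 of each class by highest group mean with at least 20 CPM in a group. Fold changes are named for these, and for up to 4 called rises and 4 called falls per comparison with at least 5 CPM in a group. Up to 4 called genes were named per list. As alternatives, each library was left out in turn, the fit was limited to the groups compared or given a replicate block, and DESeq2 1.42.0, RLE scaling and other filters on low counts were used. CPM per kb used the length of 1 principal GENCODE transcript.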

Additional observations from a re-analysis of the deposited data

Results flagged for a closer look

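The change from day 0 to day 4 differed from WT, by edgeR's test of the difference itself, for 24 collagen genes in alphaKO (9 higher and 15 lower, where 24.2% and 19.7% of all genes were) and for 22 in fullKO (18 and 4, all genes 19.5% and 15.7%). The values are log2 differences in change, knockout less WT, so that a positive one is a larger rise or a smaller fall, with 3 libraries a group (fullKO at day 0 had 2). Among genes named for size, Col25a1 (2.91), Col6a5 (2.37), Col26a1 (2.28) and Col27a1 (1.03) were positive in alphaKO. Col7a1 (-1.67), Col16a1 (-1.3), Col13a1 (-1.18) and Col22a1 (-1.18) were negative in alphaKO. In fullKO, Col12a1 (2.85), Col6a5 (2.64), Col3a1 (2.53) and Col6a2 (2.35) were positive, and Col6a5 and Col6a2 fell in WT. Col13a1 (-1.46), Col9a2 (-1.01), Col9a3 (-0.86) and Col11a1 (-0.84) were negative. The Col9a3 call in fullKO was lost without the first or second WT library of day 0 (-0.76 and -0.75) or the first fullKO library of day 0 (-0.65). Col6a5 averaged under 1 CPM in every genotype at day 4, so its values rest on few reads.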

How the results depend on the processing

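None of the 14 counts of collagen genes called moved by more than 1.5 times under DESeq2, RLE scaling, other low-count filters, only the groups compared, the replicate block or with 1 library left out. Of 3822 values of named genes under these alternatives, 3739 kept their side of the threshold, with the same direction where called, 31 gained a call, 52 lost one and 0 turned direction while called. Of 301 named results 34 changed side under at least 1 alternative. With each library left out the counts ran, for WT, from 37 to 41 (day 2 against day 0), 37 to 39 (day 4 against day 0) and 26 to 27 (day 4 against day 2). Against WT on days 0, 2 and 4 they ran from 21 to 25, 29 to 31 and 28 to 30 in alphaKO, and from 27 to 30, 30 to 33 and 28 to 29 in fullKO. Between knockout genotypes they ran from 20 to 25, 15 to 17 and 18 to 22, and for the difference in change from 22 to 26 in alphaKO and 19 to 23 in fullKO. By DESeq2 the differences in change of Col3a1 (0.58), Col4a2 (0.39) and Col12a1 (-0.37) in alphaKO and of Col1a1 (0.55) in fullKO were not called, nor was Col5a1 between knockout genotypes at day 4 (-0.23).

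Libraries of the same replicate number shared no shift in levels: correlations of their deviations lay between -0.0533 and 0.0543 in every pair. That cannot tell whether such libraries came from 1 series of cultures. With the replicate block WT counts were 41, 39 and 26. Against WT, 24, 30 and 29 genes were called for alphaKO, and 30, 32 and 30 for fullKO. Between knockout genotypes 25, 16 and 21 were called, and for the differences in change 24 and 22. With 2 libraries of fullKO at day 0, leaving 1 out assumes that the other varies like the rest. Genes under 1 CPM rest on few reads, and their folds are imprecise.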
